A study of Homo sapiens with 12 samples.

Results

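The uroplakin genes UPK1A, UPK1B, UPK2, UPK3A and UPK3B were examined for H3K27me3, a repressive histone mark laid down by the Polycomb enzyme EZH2. Members were taken by gene symbol from the 4 deposited peak lists, in which each peak carries the symbol of the gene with the nearest transcription start site (TSS). Of the 5 genes, 4 had a peak whose centre lay within 10 kb of the TSS, among 18981 genes with such a peak in the series. The same 4 had one without a distance limit, among 23021 genes. UPK3B had none in any library.

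The libraries came from T24, an established human bladder cancer cell line. One H3K27me3 ChIP-seq library was made for each of 4 conditions: DMSO as vehicle, GSK-126 (an EZH2 inhibitor) at 5 µM, fenretinide (a synthetic retinoid) at 5 µM, and the combination of both at 5 µM each. The labels give 72 h for the treated cells and no time for the vehicle cells, and all chromatin was fixed with 1% formaldehyde for 10 min. With 1 library per condition no difference below has a replicate check, and no p-value was computed. No table of expression was used here, so the labelled cell type was not checked against its markers.

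The 4 libraries held 15812933 to 18928836 fragments in 273664 consensus intervals, the merged regions of all deposited peaks. Levels are fragments per kb of interval. Each library's fragments at a gene were taken as a share of its total, a ratio is 1 such share over another, and the range in parentheses is its 95% counting interval (from an exact Clopper-Pearson binomial interval), which covers counting error only. A gene is called lower or higher where the ratio is at most 0.5 or at least 2, the counting interval excludes 1 and the 2 libraries hold at least 50 fragments together. No label names a spike-in, so lower and higher refer to library share and not to the amount of the mark per cell.

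Uroplakins are membrane proteins that assemble into rigid plaques on the apical surface of umbrella cells, the outermost cells of the bladder lining, and they serve as markers of terminal urothelial differentiation. UPK1A and UPK1B are tetraspanins, proteins that cross the membrane several times. UPK1A pairs with UPK2, and UPK1B pairs with UPK3A or UPK3B. These partners cross the membrane once, and pairing lets the complexes leave the endoplasmic reticulum.

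Promoter sequences are shown to mark whether a vehicle peak reached the gene start, and a link between sequence and mark was not tested. RefSeq (GRCh38.p14) windows from 250 bases before to 50 bases after the gene start were found for 3 of the 5 genes. Each is on the plus strand and reads 5′ to 3′, and capitals mark bases inside the vehicle library's peak. The UPK1A window is chr19:35666267-35666566, that of UPK1B is chr3:119173348-119173647 and that of UPK3B is chr7:76510302-76510601. UPK2 and UPK3A were not matched.
UPK1A: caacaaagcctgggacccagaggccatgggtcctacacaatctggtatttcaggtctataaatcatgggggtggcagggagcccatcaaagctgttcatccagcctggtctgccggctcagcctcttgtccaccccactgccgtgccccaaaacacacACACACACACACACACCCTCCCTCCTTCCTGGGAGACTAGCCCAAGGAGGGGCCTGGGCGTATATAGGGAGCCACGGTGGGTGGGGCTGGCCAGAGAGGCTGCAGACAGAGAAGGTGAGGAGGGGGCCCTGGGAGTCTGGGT
UPK1B: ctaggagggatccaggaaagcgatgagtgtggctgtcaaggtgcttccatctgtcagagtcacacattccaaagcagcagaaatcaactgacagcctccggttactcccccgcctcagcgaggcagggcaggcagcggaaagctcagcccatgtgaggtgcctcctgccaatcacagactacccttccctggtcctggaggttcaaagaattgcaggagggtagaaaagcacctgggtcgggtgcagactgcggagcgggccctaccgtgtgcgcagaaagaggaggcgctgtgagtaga
UPK3B: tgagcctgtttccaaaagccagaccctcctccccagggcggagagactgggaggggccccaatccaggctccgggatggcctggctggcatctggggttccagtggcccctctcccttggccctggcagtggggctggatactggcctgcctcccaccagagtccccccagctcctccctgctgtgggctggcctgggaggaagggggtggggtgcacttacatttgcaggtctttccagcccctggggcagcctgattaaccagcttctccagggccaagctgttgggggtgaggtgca

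In the UPK1A window, 142 of 300 bases lay in a vehicle peak and all 300 in a fenretinide peak, while 0 bases lay in a GSK-126 or combination peak. In the UPK1B and UPK3B windows 0 bases lay in a peak of any library. CG dinucleotides numbered 4 for UPK1A, 11 for UPK1B and 2 for UPK3B, against a median of 14 over 35116 RefSeq promoter windows, of which 24.5%, 45.3% and 11% had fewer. Their GC content was 60.7%, 58.3% and 65.7%, against a median of 58.7%.

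The windows were also searched on both strands for 5 short motifs of factor families active in epithelia. The GATA motif searched was AGATAA, which 10.3% of all promoter windows hold. The forkhead motif was TGTTTAC, held by 3.42% of windows. The grainyhead motif was AACCGGTT, held by 0.134% of windows. The KLF motif was GGGGTGGG, held by 10.2% of windows, and the nuclear receptor motif was AGGTCA, held by 13.8% of windows. The 1 match was the KLF motif in the UPK3B window, on the gene's strand, with its first base at -46 from the TSS. A match or its absence describes these letters in this window alone.

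With vehicle, the mark covered the bodies of UPK1A and UPK3A and lay outside those of UPK1B and, for the most part, UPK2. The TSS lay inside a vehicle peak for UPK1A and UPK3A and in none for UPK1B, UPK2 and UPK3B. Vehicle peaks covered 82.1% of the UPK1A span (chr19:35666517-35678481, 12 kb) and 100% of the UPK3A span (chr22:45284949-45295874, 10.9 kb). They covered 17.2% of the UPK2 span (chr11:118956298-118958559, 2.26 kb) and 0% of the UPK1B span (chr3:119173598-119205143, 31.5 kb).

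The UPK1A peak of the vehicle library was 6.56 kb long and ran from -0.091 to 6.47 kb relative to the TSS, with its centre in an intron of the antisense gene UPK1A-AS1 in the deposited annotation. The UPK3A peak was 16.8 kb long and ran from -3.25 to 13.5 kb, with its centre in an intron of UPK3A. The UPK2 peak, 13.3 kb long, was intergenic and ended at -1.02 kb, short of the TSS. The UPK1B peak, 6.72 kb long and intergenic, ended at -2.36 kb. The UPK1B peak was thus an upstream block that stopped short of the gene, and the map of peaks shows that block in all 4 libraries.

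**Figure D1:**
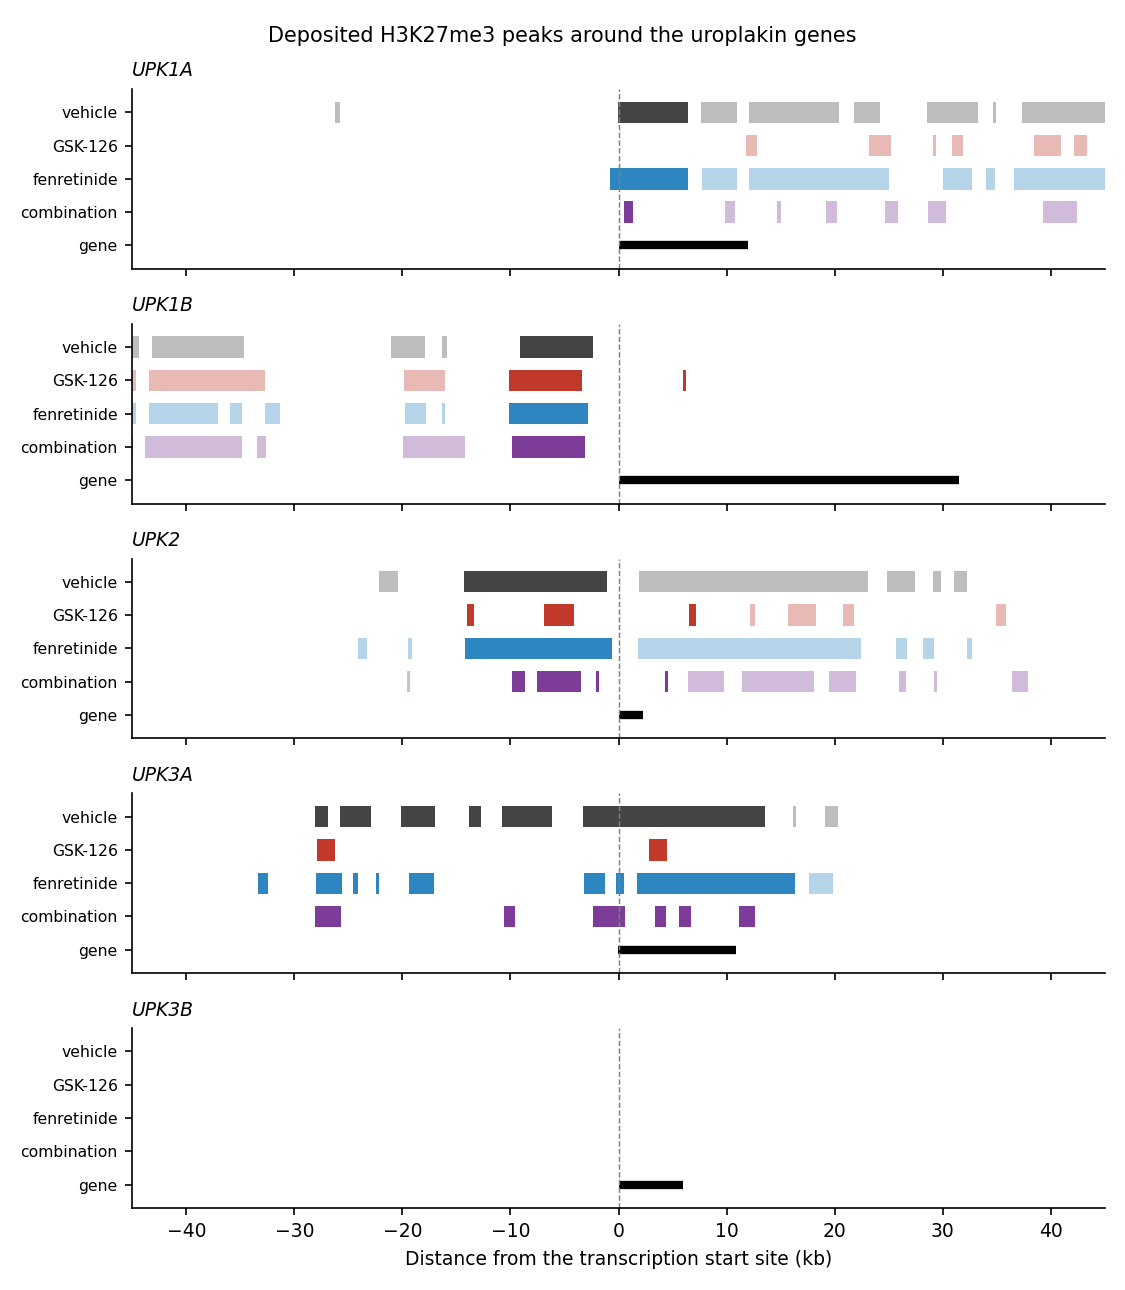
Deposited H3K27me3 peaks of the 4 libraries by distance from the TSS in kb, with 1 panel for each uroplakin gene. Full colour marks peaks named for that gene, pale colour peaks named for another gene, and the black bar the RefSeq gene span. The UPK1A, UPK2 and UPK3A blocks shrink with GSK-126 and the combination, the UPK1B block lies upstream in all 4, and no peak falls in the plotted range around UPK3B.

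The deposited peak score is a whole number that the authors give with no stated scale and a minimum of 10. Among the members it was highest at UPK1B in each list. Its highest peak scored above 97.2% of the peaks in the vehicle list, 98.8% in the GSK-126 list, 97.8% in the fenretinide list and 99.1% in the combination list. The vehicle peak of UPK1A scored above 92.8% of its list, that of UPK2 above 88.2% and the highest of UPK3A above 70.6%. In the other lists the next member scored above 51.3% (UPK2, GSK-126), 87% (UPK3A, fenretinide) and 92.1% (UPK2, combination).

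Peak length within 20 kb of the TSS, peaks named for other genes included, was short in the GSK-126 and combination lists for 3 of the genes. Around UPK1A it was 17.9 kb in the vehicle list, 1.02 kb in the GSK-126 list, 18.4 kb in the fenretinide list and 2.88 kb in the combination list. Around UPK2 the lengths were 31.4, 7.12, 32.1 and 16.7 kb, and around UPK3A 26.6, 1.69, 21.9 and 7.54 kb. Around UPK1B they were 9.34, 10.9, 9.5 and 12.5 kb, with no such drop. Over the genome the lists held 703, 700, 746 and 829 Mb of peaks, so the lists with short coverage at the 3 genes were not short as a whole. With GSK-126, 0 peaks were named for UPK1A and the start sites of all 5 genes were outside peaks.

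Counts came from 7 consensus intervals within 10 kb of a member's TSS. UPK1A had 1 (chr19:35665751-35672985), which covers 54.1% of its span. UPK1B had 2, the upstream block (chr3:119163421-119171220) and a 0.291 kb interval in the first intron (chr3:119179520-119179810) that held at most 6 fragments in a library. UPK2 had 2, 1 upstream (chr11:118941974-118955673) and 1 from the 3′ end of the gene onward (chr11:118958130-118979403). The downstream one is tied to UPK2 only by a 0.637 kb GSK-126 peak and a 0.299 kb combination peak. Its vehicle and fenretinide peaks are named for another gene. It held 391 of the 702 vehicle fragments of UPK2. UPK3A had 2, 1 upstream (chr22:45274247-45278840) and 1 over the whole gene (chr22:45281734-45301443).

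With vehicle, the order of levels was UPK1B, UPK1A, UPK2 and UPK3A, at 27.8 (24.3 to 31.7), 23.4 (20 to 27.2), 20.1 (18.6 to 21.6) and 18.1 (16.4 to 19.8) fragments per kb, where the range is the exact Poisson interval of the count. Each neighbour in that order overlapped the next within counting error. All 4 lay above the median gene, at 14.1 fragments per kb, and UPK1B above 92% of the 16313 genes with at least 50 fragments over the 4 libraries.

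UPK1A, the tetraspanin that pairs with UPK2, had 23.4 fragments per kb in the vehicle library, 5.39 in the GSK-126 library, 20.2 in the fenretinide library and 5.11 in the combination library. UPK2, its partner, had 20.1, 6.23, 18.6 and 8.55. UPK3A had 18.1, 5.51, 13 and 5.76. In these 3 genes the GSK-126 and combination libraries were low, the vehicle and fenretinide libraries high, and the counting intervals of the 2 sets did not overlap.

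UPK1B, the tetraspanin that pairs with UPK3A, had 27.8, 41, 34.6 and 37.4 fragments per kb in the same order. On this level, which is not scaled for depth, vehicle was the lowest library and GSK-126 the highest. With GSK-126 the UPK1B level was above that of 99.4% of genes, while UPK1A, UPK2 and UPK3A were above 24%, 32.1% and 25.1%.

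**Figure D2:**
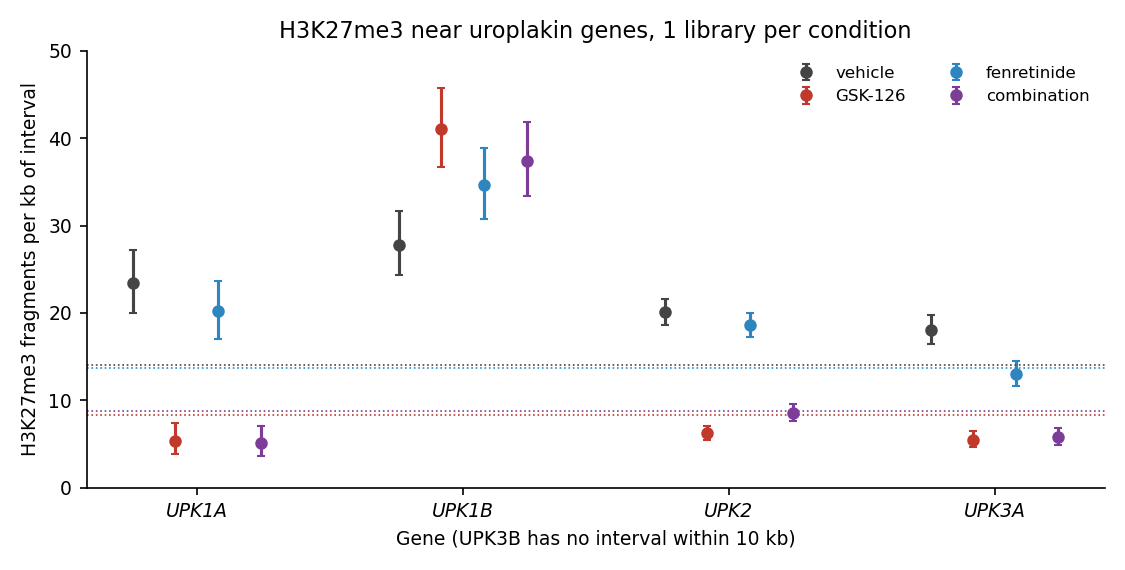
H3K27me3 fragments per kb of interval (vertical axis) for the 4 uroplakin genes with intervals, with 1 point per library and bars for the exact 95% Poisson interval of the count. Dotted lines give the median gene of each library. UPK1A, UPK2 and UPK3A sit between 5.11 and 8.55 with GSK-126 and the combination, and UPK1B at 41 and 37.4.

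GSK-126 against vehicle asks where an EZH2 inhibitor changed the share of the mark. UPK1A, UPK2 and UPK3A were called lower, UPK1B was not called, and UPK3B was not measured. UPK1A had 169 vehicle and 39 GSK-126 fragments, a ratio of 0.245 (0.168 to 0.348). UPK2 had 702 and 218, a ratio of 0.329 (0.282 to 0.384), and UPK3A had 439 and 134, a ratio of 0.324 (0.265 to 0.394). In all 3 the upper counting bound lay below 0.5.

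UPK1B had 225 vehicle and 332 GSK-126 fragments, a ratio of 1.56 (1.32 to 1.86) that stayed under the 2-fold rule and turned to 0.921 (0.775 to 1.1) when libraries were scaled to their lowest-density intervals (background scaling). Those lowest-density intervals are themselves merged regions of called peaks. They held 552359 vehicle and 885256 GSK-126 fragments, and whether they are free of the mark was not tested. Background scaling moved all log2 ratios of GSK-126 against vehicle by -0.77 and left UPK1A, UPK2 and UPK3A called lower. Over all genes 41.4% of 14725 were called lower and 11.5% higher, and with background scaling 68.6% and 7.25%. The 3 of 4 members called lower stand beside that background, in which a large share of genes fell. Across genes the log2 ratio had a median of -0.79. UPK1A, at -2.02, differed from that median by -1.23, UPK3A by -0.84, UPK2 by -0.81 and UPK1B, at 0.64, by 1.43. In rank, 5.33% of genes had a lower ratio than UPK1A, 16.5% than UPK3A, 17.4% than UPK2 and 84.9% than UPK1B.

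By interval, with at least 20 fragments in both libraries together, 5 of the 6 tested member intervals were called lower with GSK-126, against 21.6% of 156925 intervals. That background takes intervals at any distance from a TSS and with as few as 20 fragments. The 6 member intervals lie near a TSS and hold 93 to 549, so the shares are not like for like. By gene the share was 41.4%. The same limit applies to the interval shares of the comparisons below. The upstream UPK2 interval was at 0.297 (0.231 to 0.377) and the downstream one at 0.355 (0.289 to 0.434). The UPK3A gene-body interval was at 0.312 (0.249 to 0.387) and the upstream one at 0.39 (0.236 to 0.625). Both sides of UPK2 and both parts of UPK3A therefore fell. The UPK1B upstream block, at 1.55 (1.3 to 1.85), was the interval not called.

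Fenretinide against vehicle asks whether a retinoid alone moved the mark. None of the 4 measured uroplakin genes was called, against 1.5% of 14818 genes called lower and 0.337% called higher. UPK3A had the lowest ratio, 0.652 (0.562 to 0.755), from 439 to 316 fragments. UPK1A was at 0.782 (0.622 to 0.982), UPK2 at 0.837 (0.751 to 0.932) and UPK1B at 1.13 (0.942 to 1.35). The counting interval excluded 1 for UPK1A, UPK2 and UPK3A and included it for UPK1B. The median gene was itself below 1, at a log2 ratio of -0.15. From that median UPK1A differed by -0.20, UPK2 by -0.11, UPK3A by -0.47 and UPK1B by 0.32. In rank, 25.1% of genes had a lower ratio than UPK1A, 36% than UPK2 and 84.5% than UPK1B.

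Of all genes, 8.19% had a lower ratio than UPK3A. Its 2 intervals differed in their ratios. The upstream interval, with a 4.59 kb peak in the vehicle list and none in the fenretinide list, went from 68 vehicle to 31 fenretinide fragments, a ratio of 0.413 (0.261 to 0.64), and was the 1 of 6 tested member intervals called lower, against 2.16% of 159127 intervals. The gene-body interval went from 371 to 285 fragments, a ratio of 0.695 (0.594 to 0.814).

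The combination against vehicle asks what both compounds together did. The same 3 genes were called lower as with GSK-126 alone, and both comparisons use the same vehicle library. UPK1A went from 169 to 37 fragments, a ratio of 0.237 (0.162 to 0.34). UPK3A went from 439 to 140, a ratio of 0.346 (0.284 to 0.419), and UPK2 from 702 to 299, a ratio of 0.461 (0.402 to 0.529). UPK1B went from 225 to 303, a ratio of 1.46 (1.22 to 1.74) that was not called and that turned to 0.831 (0.697 to 0.992) with background scaling. Over all genes 32.9% of 14736 were called lower and 9.86% higher, and with background scaling 69.2% and 5.13%.

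UPK1A was again the member farthest below the median gene (log2 -0.64), with a log2 ratio of -2.06, and 2.18% of genes had a lower ratio. UPK2 was the least reduced of the 3 and its upper counting bound lay above 0.5. By interval, 4 of 6 tested were called lower, against 15.8% of 158263 intervals at any distance from a TSS. The upstream UPK3A interval, at 0.542 (0.348 to 0.829), was not called, unlike with GSK-126 alone. Compared directly, it held 25 GSK-126 and 34 combination fragments, a ratio of 1.39 (0.805 to 2.43). Counting error thus did not tell these libraries apart there.

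**Figure D3:**
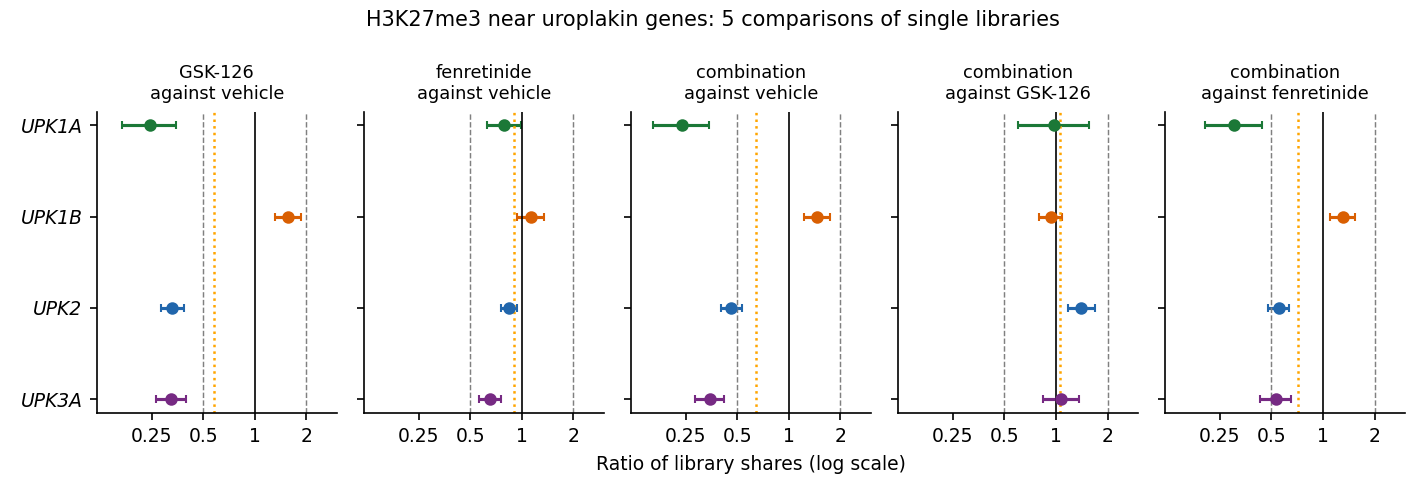
Ratio of library shares (log axis) for the 4 uroplakin genes in the 5 comparisons, with 95% counting intervals as bars. The solid line marks a ratio of 1, dashed lines the 2-fold limits and the dotted line the median gene. UPK1A, UPK2 and UPK3A lie below 0.5 in the panels of GSK-126 and of the combination against vehicle, and UPK1B at 1.56 and 1.46, which turned to 0.921 and 0.831 with background scaling.

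The combination against GSK-126 asks what fenretinide added to the EZH2 inhibitor. No uroplakin gene was called, against 0.443% of 13777 genes called higher and 0.501% called lower. UPK2 was the member with a counting interval that excluded 1, going from 218 to 299 fragments, a ratio of 1.4 (1.17 to 1.68), and 91.8% of genes had a lower ratio. Its upstream interval was at 1.56 (1.18 to 2.07) and its downstream interval at 1.29 (1.02 to 1.64). UPK3A was at 1.07 (0.836 to 1.36), UPK1A at 0.969 (0.601 to 1.56) and UPK1B at 0.932 (0.795 to 1.09). UPK1A rests on 39 and 37 fragments, so a difference within 0.601 to 1.56 was not detectable at this depth.

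The combination against fenretinide asks what the EZH2 inhibitor added to the retinoid. UPK1A alone was called lower, from 146 to 37 fragments, a ratio of 0.303 (0.206 to 0.438), and 1.46% of genes had a lower ratio. UPK3A, from 316 to 140 at 0.53 (0.431 to 0.649), and UPK2, from 649 to 299 at 0.551 (0.479 to 0.633), lay just short of the 2-fold rule and passed it with background scaling. UPK1B went from 280 to 303, a ratio of 1.3 (1.1 to 1.53), or 0.81 (0.686 to 0.956) with background scaling. Over all genes 18.7% of 14631 were called lower and 9.43% higher, and with background scaling 59.6% and 4.72%.

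**Figure D4:**
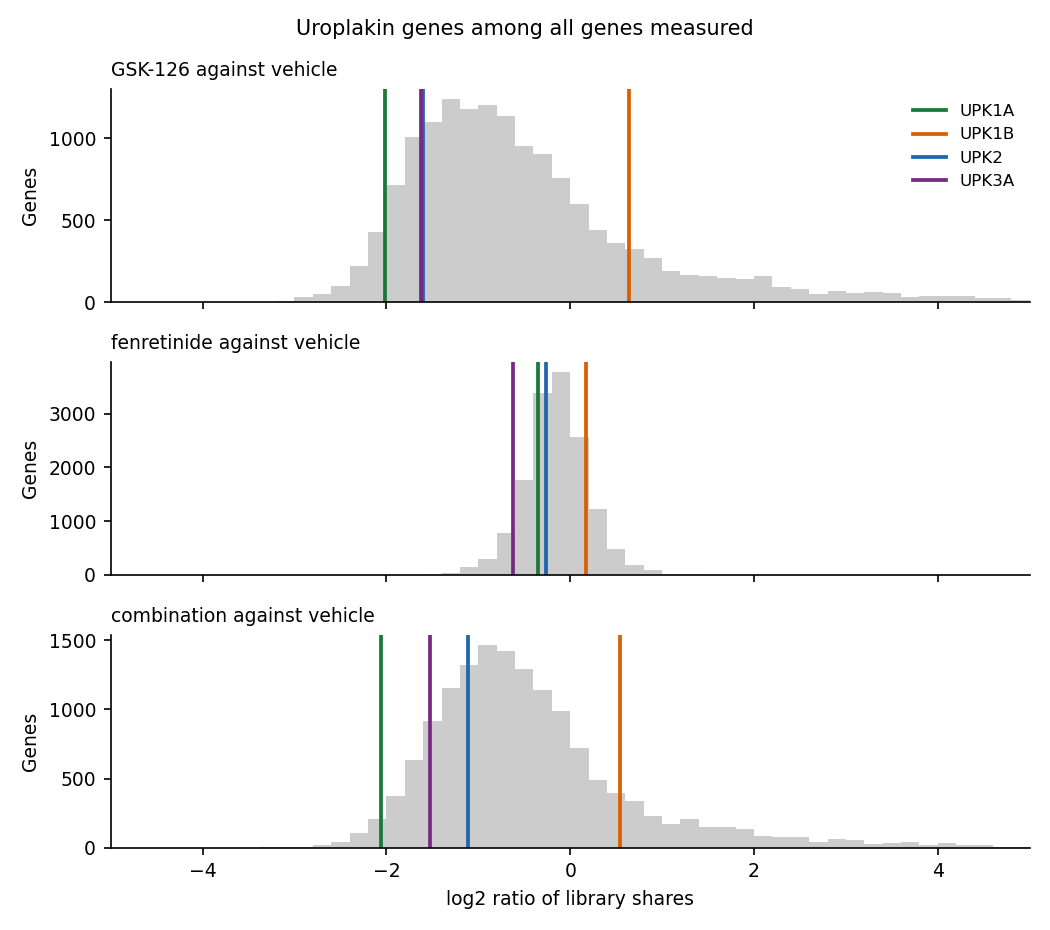
Number of genes (vertical axis) by log2 ratio of library shares for the 3 comparisons with vehicle, shown from -5 to 5, with coloured lines for the uroplakin genes. With GSK-126, UPK1A, UPK2 and UPK3A lie at -2.02, -1.60 and -1.62, left of the median gene at -0.79, and UPK1B at 0.64. With fenretinide all 4 lie between -0.62 and 0.17.

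Members were also compared with each other. The ratio of 1 gene divided by that of another uses no library total, so it does not depend on how the libraries were scaled. All 6 pairs were compared in each comparison, with an exact conditional 95% interval that covers counting error. The pairs reuse the same genes and are not independent. Pairs of other genes were not compared, so the tallies have no share over all genes beside them and are not a trait of uroplakins. With GSK-126 against vehicle the interval excluded 1 for 3 of 6 pairs, those that include UPK1B. UPK1B differed from UPK2 by a factor of 4.75 (3.76 to 6), from its partner UPK3A by 4.83 (3.71 to 6.31), and UPK1A from UPK1B by 0.157 (0.103 to 0.233).

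UPK1A against its partner UPK2 gave 0.743 (0.494 to 1.1), UPK1A against UPK3A 0.756 (0.494 to 1.14) and UPK2 against UPK3A 1.02 (0.79 to 1.31). These 3 genes were thus not told apart by counting error, and the intervals still allow differences of up to the bounds given. With the combination against vehicle the interval excluded 1 for 5 of 6 pairs, with UPK1A against UPK3A at 0.687 (0.445 to 1.04) as the other. There UPK1B was at 3.16 (2.52 to 3.96) times the ratio of UPK2 and 4.22 (3.24 to 5.51) times that of UPK3A. UPK1A against UPK2 gave 0.514 (0.341 to 0.759), so UPK1A fell further than UPK2, and UPK2 against UPK3A gave 1.34 (1.05 to 1.7). With fenretinide against vehicle 4 of 6 pairs excluded 1. UPK1B against UPK3A gave 1.73 (1.37 to 2.18), UPK1B against UPK2 1.35 (1.09 to 1.66), UPK2 against UPK3A 1.28 (1.07 to 1.54) and UPK1A against UPK1B 0.695 (0.518 to 0.93). The tally was 1 of 6 for the combination against GSK-126 and 5 of 6 for the combination against fenretinide.

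The mark around UPK1A, UPK2 and UPK3A differed in the same direction as at the genes. Intervals within 50 kb of each gene span, without the member's own, were summed, a distance chosen after the data were seen. Around UPK1A, 6 intervals held 562, 199, 568 and 211 fragments (vehicle, GSK-126, fenretinide and combination, as in the counts that follow), a ratio of 0.376 (0.318 to 0.442) for GSK-126 against vehicle. One of the 6 lies inside the UPK1A span (chr19:35674104-35677511, named for UPK1A-AS1), with 67, 17, 71 and 27 fragments and a ratio of 0.269 (0.148 to 0.463). Around UPK3A, 6 intervals, 5 of them distant ones named for UPK3A itself, held 135, 51, 144 and 58, a ratio of 0.401 (0.284 to 0.557). Around UPK2, 8 intervals held 109, 63, 106 and 64, a ratio of 0.613 (0.442 to 0.843).

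Around UPK1B, 5 intervals held 1091, 1230, 1300 and 1207 fragments, a ratio of 1.2 (1.1 to 1.3) that turned to 0.703 (0.648 to 0.764) with background scaling. Among intervals with at least 20 fragments in the GSK-126 and vehicle libraries together, all 4 around UPK1A, all 4 around UPK2 and all 3 around UPK3A had ratios below 1. Around UPK1B 2 of 4 did, with ratios from 0.771 to 1.65, and with background scaling all 4 did, with ratios from 0.453 to 0.973. Among the 4 intervals around UPK2 with fewer fragments, 3 had ratios above 1, and among the 3 such intervals around UPK3A 1 did. The chromosomes differed as well: 65.3% of genes on chromosome 22 (UPK3A) were called lower with GSK-126, 46.1% on chromosome 19 (UPK1A), 42.4% on chromosome 11 (UPK2) and 33.9% on chromosome 3 (UPK1B). The shares called higher were 6.99%, 25%, 9.27% and 12.2%. The part of the surroundings in each gene's ratio was not tested.

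UPK3B (chr7:76510552-76516522), the other partner of UPK1B, had no interval to count. The nearest interval upstream was 59.1 kb away and the nearest downstream 44.9 kb away. Of 19970 RefSeq protein-coding genes on chromosomes 1 to 22 and X, 15.1% had no interval within 10 kb of the span, and 3.62% had none within 40 kb, as UPK3B did. The downstream interval (chr7:76561466-76566524), named for LOC100133091, held 15, 100, 25 and 90 fragments, a ratio of 7.07 (4.09 to 13.1) for GSK-126 against vehicle. UPK3B has near copies on chromosome 7, and how reads with several matches were treated is not given in the sources used here. Their part in the lack of peaks was not tested. The uroplakin-3b-like genes UPK3BL1 and UPK3BL2 had no peak named for them either.

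Other genes of urothelial differentiation and uroplakin handling were measured by the same rule. With GSK-126 the counts of each list stand beside 41.4% of all genes called lower and 11.5% called higher, and with fenretinide beside 1.5% and 0.337%. Among 20 transcription factor genes of the urothelium, 7 were measured with GSK-126 against vehicle, and 4 were called lower and none higher, with a median log2 ratio of -1.49 beside -0.79 for all genes. In this comparison the median of each of the 5 lists stayed below 0 under each of the 4 scalings, as did the all-gene median. The latter was -0.79 by library total and -1.55 with background scaling. The number called lower in each list rose with background scaling, here to 7 of 7, beside 68.6% of all genes. KLF4, a factor of epithelial differentiation, went from 49 to 6 fragments, a ratio of 0.13 (0.0455 to 0.303). GATA3, a luminal factor, went from 92 to 66, a ratio of 0.761 (0.546 to 1.06), and was not called. With fenretinide 2 of 7 were called lower, the nuclear receptor gene NR2F6 at 0.397 (0.238 to 0.646) and KLF4 at 0.443 (0.26 to 0.737), and 1 gene each among the luminal markers (FGFR3, a growth factor receptor gene, at 0.41, 0.327 to 0.51) and the tetraspanins (TSPAN9 at 0.366, 0.196 to 0.658). None was called among the basal or traffic genes.

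Of 28 luminal marker genes, 13 were measured with GSK-126 and 7 were called lower and none higher (median -1.15). CLDN7, a tight junction gene, went from 179 to 42 fragments, a ratio of 0.249 (0.173 to 0.35). ERBB3, a receptor gene, went from 26 to 48, a ratio of 1.96 (1.19 to 3.29), and was not called. Of 24 basal marker genes, 15 were measured, with 3 lower and 1 higher (median -0.84), a smaller share lower than over all genes, which turned round with background scaling (13 of 15, beside 68.6% of all genes). Some of these genes share intervals. ITGB4, an integrin gene of the basal layer, was at 0.242 (0.184 to 0.314) and SERPINB3 at 4 (2.14 to 8.03).

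Of 31 other tetraspanin genes, the family of UPK1A and UPK1B, 16 were measured with GSK-126, of which 10 were called lower and none higher (median -1.24). TSPAN33 was the lowest at 0.184 (0.123 to 0.268). TSPAN8 had the highest ratio, with 210 and 338 fragments at 1.71 (1.43 to 2.04), and was not called. Of 22 genes of apical membrane traffic, which includes the delivery of uroplakin vesicles, 10 were measured, with 4 lower and 1 higher (median -0.73), close to the shares over all genes. VAMP8, a vesicle fusion gene, was at 0.208 (0.149 to 0.287), while EXOC6, of the exocyst complex, was at 30.4 (10.1 to 150), from 3 vehicle and 86 GSK-126 fragments.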

How the data were processed

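H3K27me3 was profiled by ChIP-seq in 4 T24 libraries. The 4 input and 4 RNA-seq libraries of the labels were not analysed here. The authors deposited raw fragment counts for consensus intervals, made with featureCounts 2.0.1 per the file headers (read pairs, no strand, minimum overlap fraction 0.2). The authors also deposited broad peaks of each library with a score, for which the submitters' processing notes name MACS2 2.1.0 and the build GRCh38 (hg38). Gene names and distances in those lists come from HOMER, per the file headers. The aligner and the control for peak calling are not given in the sources used here.

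Gene counts summed the intervals that hold a peak named for the gene within 10 kb. Log2 ratios used a pseudocount of 0.5. All 939236 peaks lay inside an interval, and the interval ends are those of the outermost peaks of any library. Named genes were the 5 members, interval partners, UPK3BL1, UPK3BL2, and up to 2 of the highest and 2 of the lowest ratios per list and comparison. Members and lists were chosen with earlier results of these data known. Alternatives were scaling by size factors from DESeq2 1.42.0, by TMM from edgeR 4.0.16, or by the fragments in the sparsest 25% of intervals (background scaling), and other TSS distances, fragment minimums, ratio and score limits, and gene spans. Python 3.11.15, scipy 1.17.1, pandas 2.3.3 and R 4.3.3 were used.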

Additional observations from a re-analysis of the deposited data

How the results depend on the processing

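The calls of UPK1A, UPK2 and UPK3A as lower with GSK-126 and with the combination against vehicle were kept under every alternative scaling, distance, minimum, ratio limit, score limit and gene span tried. Several of these could not remove a call. Lower minimums and the 1.5-fold limit only loosen the rule, and background scaling lowers the ratios of both comparisons. For UPK1A the other distances and the score limit used the same interval. With GSK-126 against vehicle the ratio ranged from 0.144 (background scaling) to 0.321 (gene span with 5 kb) for UPK1A, from 0.194 to 0.329 for UPK2 and from 0.19 to 0.35 for UPK3A. Counts of called members changed in 6 of 50 cases. With a limit of 1.5-fold, GSK-126 against vehicle had 3 lower and 1 higher (UPK1B), fenretinide against vehicle 1 lower (UPK3A), and the combination against fenretinide 3 lower. Over all genes that limit called 57.2% lower and 15.5% higher, 8.62% lower, and 42.4% lower in these comparisons. That last comparison had 3 of 4 lower with background scaling, 2 of 3 within 2 kb of the TSS and 2 of 4 over gene spans, against 1 as reported. Over all genes it had 59.6% lower with background scaling and 17.1% of 7482 lower within 2 kb. No share over all genes is given for gene spans.

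UPK1B turned direction with background scaling, to 0.921 with GSK-126, 0.831 with the combination against vehicle and 0.81 with the combination against fenretinide. Within 2 kb of the TSS UPK1B had no interval. In the combination against GSK-126, UPK3A turned from 1.07 to 0.977 (DESeq2), 0.989 (TMM), 0.994 (within 2 kb) and 0.994 (gene span), and UPK1A from 0.969 to 1.09 (gene span). Background scaling moved log2 ratios against vehicle by -0.77, -0.13 and -0.81 for GSK-126, fenretinide and the combination, and then 68.6% of genes were called lower with GSK-126. Counting only the intervals with a vehicle peak of the gene, an alternative added after seeing the data, changed none of the 5 counts. Background scaling of the summed intervals around UPK1B, also added after seeing the data, turned their ratio from 1.2 to 0.703. No paired analysis was possible because each condition has 1 library. The cause of these shifts was not tested.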

Other observations

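The mark around UPK3A extended into intergenic intervals more than 10 kb upstream that the deposited lists also name for UPK3A. There were 5, with peak centres from -32.9 to -13.3 kb relative to the TSS. The interval chr22:45264870-45268017 held 41, 6, 36 and 9 fragments (vehicle, GSK-126, fenretinide, combination), a ratio of 0.155 (0.0538 to 0.368) for GSK-126 against vehicle. The interval chr22:45256907-45262055 held 50, 32, 56 and 35 fragments, a ratio of 0.679 (0.421 to 1.08), and kept a peak in all 4 lists. The first was called lower with GSK-126 and the second was not, and the difference between them was not tested. The other 3 held at most 14 fragments in a library.

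Neighbours shared intervals with 2 members. FOXR1, a forkhead factor gene, shares the interval downstream of UPK2, and FAM118A shares the gene-body interval of UPK3A. FOXR1 therefore has the values of that interval, 391, 131, 337 and 166 fragments, and FAM118A had 394, 112, 311 and 113 over 2 intervals, of which most are those of UPK3A. UPK1A-AS1, an antisense gene at the UPK1A locus, was tied to 2 further intervals that are among those summed around UPK1A, with 274, 95, 293 and 106 fragments, a ratio of 0.368 (0.288 to 0.466) for GSK-126 against vehicle.

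DTX2P1-UPK3BP1-PMS2P11, a read-through of pseudogenes that includes one of UPK3B, had 24 intervals named for it, with none within 10 kb of its TSS. They summed to 895 vehicle, 342 GSK-126, 953 fenretinide and 471 combination fragments, a ratio of 0.405 (0.357 to 0.46) for GSK-126 against vehicle.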
